A study of Mus musculus with 19 samples.

Results

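The transforming growth factor β (TGF-β) receptors and their SMAD pathway were described here through 10 genes: the receptors TGFBR1, TGFBR2 and TGFBR3, the signal carriers SMAD2 and SMAD3, the inhibitory SMAD7, the repressors SKI and SKIL, and LRRC32 and FURIN, which act on latent TGF-β. They were taken by symbol from a list that was fixed with earlier results of these data known. All 10 were found among the 24982 genes listed in the table of counts and passed the filter on low counts. Symbols are written in capitals, as the table has them. The RNA came from CD4+FoxP3-GFP+ regulatory T cells (Tregs) sorted by FACS from the axillary, brachial and inguinal lymph nodes that drain the injury site of Foxp3DTR mice, 8 to 16 weeks old. In this strain the Foxp3 gene drives the diphtheria toxin receptor and GFP, so every group, the uninjured one included, carries that transgene. Injured mice had 20% of the body surface held in a 90 °C bath for 9 seconds and were sampled 7 days later, and uninjured (sham) mice went through the same steps with water at room temperature. The 4 groups were CD44high Tregs of uninjured mice (4 libraries), CD44low Tregs of uninjured mice (5), CD44high Tregs of injured mice (4) and CD44low Tregs of injured mice (6), each library from 50000 cells. The labels do not say whether a library holds cells of 1 mouse or of several, so the spread between libraries may be partly technical. Among the injured CD44low libraries, 3 carry a plain number (1, 2 and 5) and 3 a second number (1_2, 4_2 and 5_2) whose meaning the labels do not give. All pairs of these 6 differed by more than counting noise, with a chi-square of 5.68 to 41.3 per gene, so none was a copy of another, but this does not show that they came from separate mice. They were analysed as 6 replicates, with values for each set of 3 given where they differ.

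TGF-β is secreted bound in a latent complex. LRRC32 (GARP) docks that complex on the surface of Tregs, FURIN cleaves the precursor, and integrins such as the one that contains ITGB8 free the ligand. Active TGF-β binds TGFBR2, which phosphorylates TGFBR1, while TGFBR3 (betaglycan) presents ligand. TGFBR1 phosphorylates SMAD2 and SMAD3, which join SMAD4 and enter the nucleus. SMAD7 blocks the receptor and recruits ubiquitin ligases to it, and SKI and SKIL (SnoN) bind the SMADs on DNA and recruit corepressors. In T cells the pathway induces Foxp3, supports peripheral Tregs and restrains their activation.

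RefSeq promoter windows (GRCm38.p6) were taken for 5 of the 10 genes, TGFBR1, TGFBR2, SMAD3, SKI and FURIN, in 7 windows, TGFBR1 and FURIN having 2 each. Windows on a whole chromosome were left out of this choice, so others of the 10 genes may have windows that were not read. The 250 bases before the start are printed for TGFBR1, TGFBR2 and SKI, because the results below turn on these 3, which did not move together. Capitals mark the SMAD element CAGAC (or GTCTG on the other strand) and the GC box GGGCGG (or CCGCCC), a site of Sp1-type factors. None of these matches overlapped.

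TGFBR1, chr4:47352972-47353221, + strand: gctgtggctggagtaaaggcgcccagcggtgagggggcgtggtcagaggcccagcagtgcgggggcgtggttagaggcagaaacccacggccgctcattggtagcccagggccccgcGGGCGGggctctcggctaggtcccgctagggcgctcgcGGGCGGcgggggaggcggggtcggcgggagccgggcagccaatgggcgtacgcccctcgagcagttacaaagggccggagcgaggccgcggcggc

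TGFBR2, chr9:116175364-116175613, - strand: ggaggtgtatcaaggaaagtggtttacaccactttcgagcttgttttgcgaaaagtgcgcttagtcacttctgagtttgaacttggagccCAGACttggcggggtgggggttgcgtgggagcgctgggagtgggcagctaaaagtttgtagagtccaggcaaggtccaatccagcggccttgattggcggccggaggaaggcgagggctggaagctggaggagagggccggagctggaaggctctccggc

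SKI, chr4:155222536-155222785, - strand: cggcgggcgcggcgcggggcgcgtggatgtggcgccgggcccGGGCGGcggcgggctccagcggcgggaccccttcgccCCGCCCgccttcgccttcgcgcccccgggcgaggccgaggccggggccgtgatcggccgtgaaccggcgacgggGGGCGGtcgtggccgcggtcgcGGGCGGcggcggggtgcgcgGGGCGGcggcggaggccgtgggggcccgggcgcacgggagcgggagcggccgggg

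The TGFBR1 window printed held 2 GC boxes, and the SKI window held 5 and had a GC content of 87.6%. Neither held the SMAD element. The other TGFBR1 window, at chr4:47385966-47386215, held 1 SMAD element and no GC box, at a GC content of 52.8%. The TGFBR2 window held 1 SMAD element and no GC box, at a GC content of 58.4%. Among all 32851 promoter windows of that length, 42.2% held the SMAD element and 32.7% the GC box, so matches of both kinds are common. A match is a stretch of letters and was not tested for binding.

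Library totals lay between 5582234 and 9433610 counts, and every one of the 10 genes had at least 35 counts in every library. Levels are given as CPM, counts scaled to a TMM-normalized library total of 1000000. The sort and Treg genes fitted the labels: CD44 was higher in CD44high Tregs (log2 fold change 2.16 ± 0.12 (SE) in uninjured and 1.89 ± 0.11 in injured mice), and FOXP3 had a mean of 70.7 to 115 CPM in the 4 groups. IL2RA was lower in CD44high Tregs (-0.62 ± 0.14 and -0.82 ± 0.14). Markers of other cells were low but not absent. The summed level of 6 macrophage and dendritic cell genes, mostly LYZ2, was 68.7 to 141 CPM in CD44high and 19.8 to 37.2 in CD44low Tregs of uninjured mice, and 91.6 to 233 and 31.5 to 147 in those of injured mice. Of 7 stromal and endothelial genes, PECAM1 gave 94.2% to 99.9% of the sum. The sum was 59.3 to 115 CPM in CD44high and 135 to 230.4 in CD44low Tregs, so it mostly shows PECAM1. COL1A1 went the other way, with means of 2.36 CPM in CD44high and 0.0568 in CD44low Tregs of uninjured mice. In injured mice its means were 1.503 and 0.263 CPM. Of the 2 genes of this list that were tested, 1 was called higher and 1 lower in CD44high Tregs, in uninjured and in injured mice. CDH5 was at 0 in all CD44low libraries, and PDGFRA was at 0 in all libraries. The 5 B cell genes summed to 70.3 to 206 CPM, the 5 CD8 and NK genes to 48.9 to 74.1, and the 4 neutrophil genes to at most 29.1, with LY6G at 0 in every library but 2 of injured CD44high Tregs, which held 1 and 3 counts. The part of such cells in the levels of the 10 genes was not tested. In bulk RNA, fewer cells that express a gene and less RNA per cell cannot be told apart.

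Per kilobase of transcript, the order of the 10 genes differed between the subsets. In CD44low Tregs of uninjured mice LRRC32 came first, at 105 ± 14.2 CPM per kilobase (SD, n = 5), followed by TGFBR2 at 63.1 ± 3.13, SMAD7 at 34.6 ± 3.58, SKIL at 30.2 ± 4.27, TGFBR1 at 24.0 ± 2.47 and FURIN at 19.05 ± 3.34. SKI, SMAD2 and SMAD3 lay close together at 14.5 ± 2.87, 12.9 ± 1.43 and 12.002 ± 2.25, and SKI and SMAD2, and SMAD2 and SMAD3, did not differ beyond the larger SD. TGFBR3 came last at 7.60 ± 2.29. In CD44high Tregs of uninjured mice TGFBR2 (37.9 ± 3.35, n = 4) and TGFBR1 (37.2 ± 5.21) shared the top within their spread, LRRC32 followed at 29.3 ± 4.23, and the 5 genes from SMAD2 (13.5 ± 0.756) to SMAD7 (11.2 ± 1.61) each lay within 1 SD of the next. SMAD3 (6.48 ± 0.463) and TGFBR3 (1.60 ± 0.284) stood last and apart. After injury SKI stood next after LRRC32 and TGFBR2 in CD44low Tregs, at 37.3 ± 16.9 (n = 6), though less than 1 SD from the genes on either side, and TGFBR1 stood only above SMAD2, SMAD3 and TGFBR3 there, at 16.8 ± 4.77. In CD44high Tregs of injured mice TGFBR2, LRRC32 and TGFBR1 kept the first 3 places (35.3 ± 9.32, 29.0 ± 9.14 and 22.3 ± 7.86, n = 4), and TGFBR3 again came last at 1.32 ± 0.566.

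**Figure D1:**
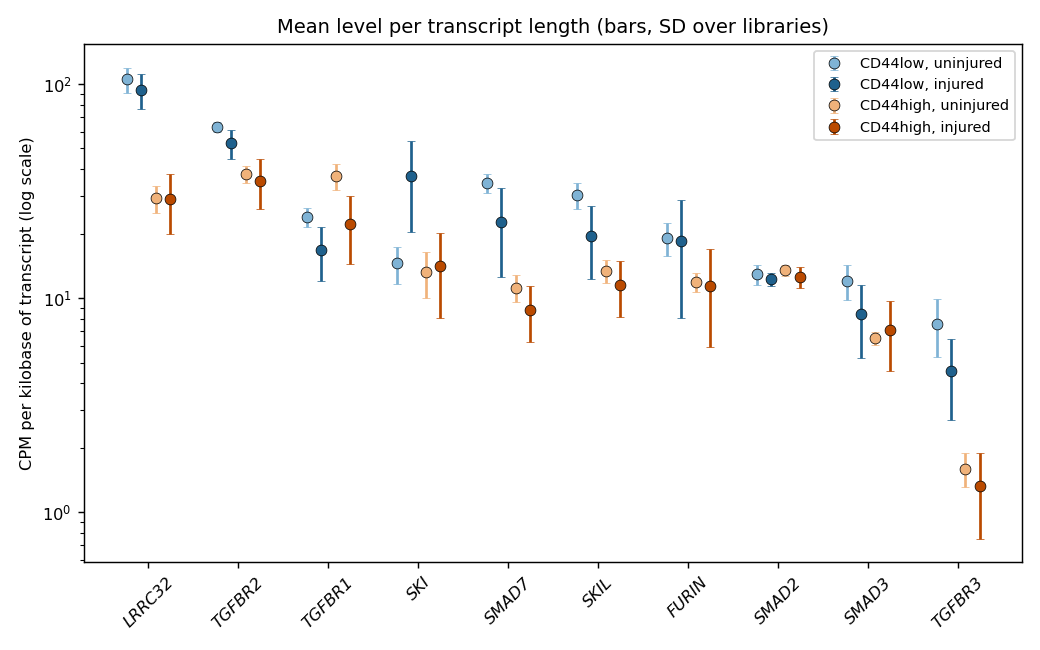
Mean level of each gene in CPM per kilobase of its longest transcript, on a log axis, for the 4 groups, with the SD over the libraries as bars. LRRC32 heads the CD44low groups at 105 and 94.1, whereas TGFBR3 is last in all 4 groups.

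In uninjured mice CD44high Tregs had less transcript of 6 of the 10 genes than CD44low Tregs and more of 1, TGFBR1. The lower genes were TGFBR2, TGFBR3, SMAD3, SMAD7, SKIL and LRRC32, called at an adjusted p under 0.05 (edgeR's quasi-likelihood test, Benjamini-Hochberg over the 11464 genes tested), where 21.3% of all genes tested were called lower and 24.7% higher. The median log2 fold change was -0.81 over the 10 genes and 0.01 over all genes tested. In 8 of the 10 genes no CD44high library lay within the CD44low range, as in 40.7% of all genes tested. At a p under 1e-06 with a 2-fold change, 2 of the 10 passed (TGFBR3 and LRRC32), against 8.30% of all genes. The 10 genes were chosen with earlier results of these data known, and the study itself shows TGFBR1, TGFBR2, TGFBR3, SKI and SKIL from these libraries. The counts and medians, here and in the comparisons below, are therefore not independent evidence for any of the 10.

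**Figure D2:**
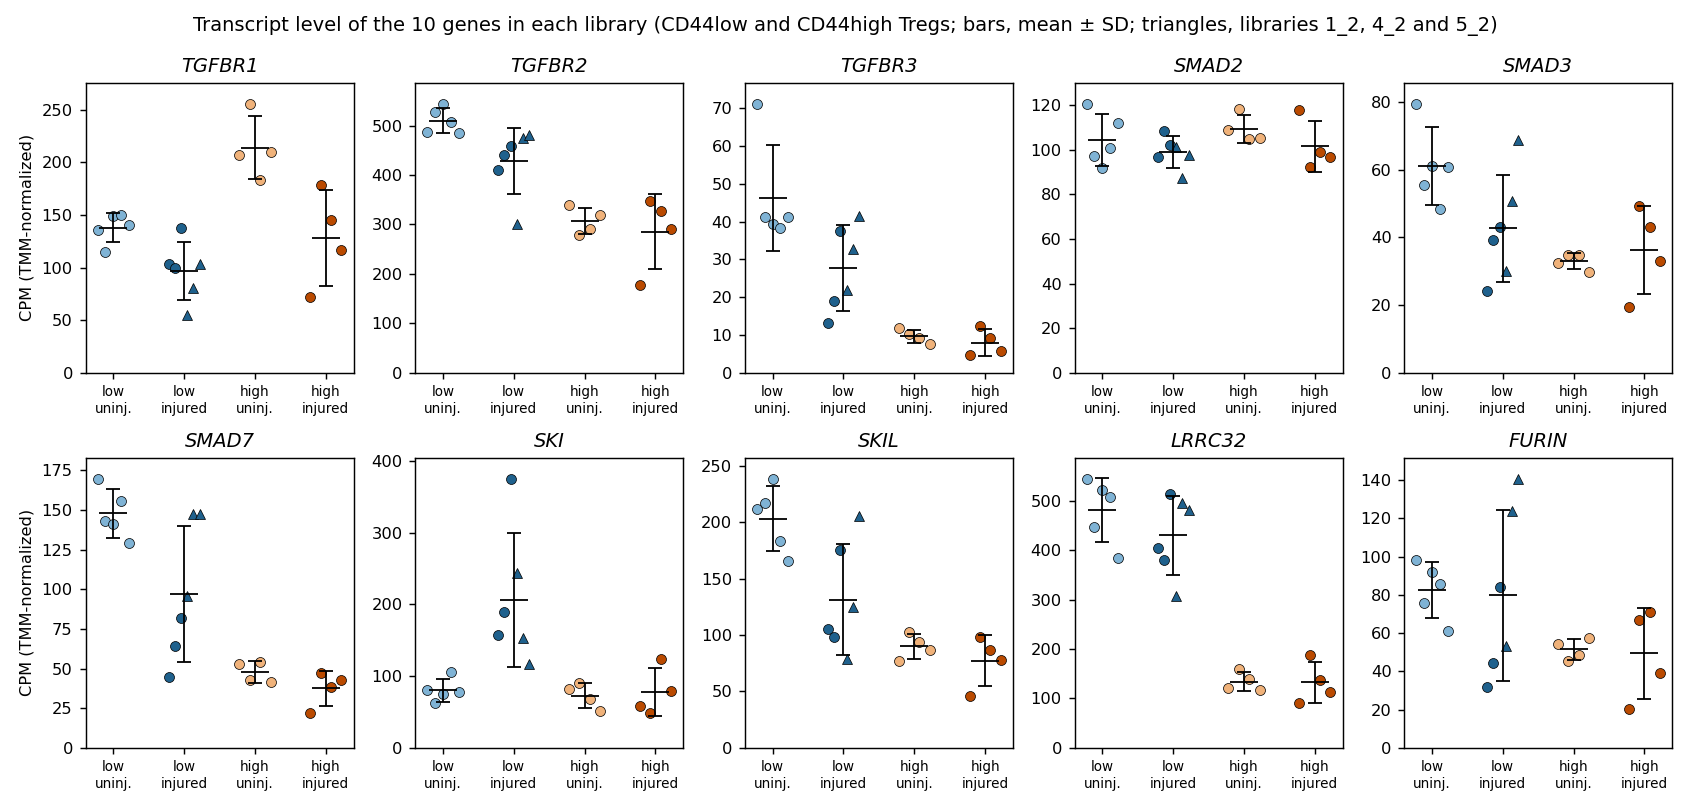
Level of each of the 10 genes in CPM (vertical axis, linear from 0) in every library of the 4 groups, with the mean and SD as bars and triangles for the libraries with a second number. LRRC32 and SMAD7 separate the uninjured subsets without overlap, and SKI stands above all uninjured CD44low libraries in all 6 injured CD44low libraries.

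Among the receptors, TGFBR1, the type I kinase that passes the signal on to the SMADs, was at 208, 256, 184 and 209.7 CPM in the CD44high and 135, 115, 149, 150.2 and 140.5 CPM in the CD44low libraries of uninjured mice. All CD44high libraries lay above all CD44low ones. It was higher in CD44high Tregs by a log2 fold change of 0.63 ± 0.21 (SE; adjusted p = 0.016, edgeR), and the call was lost without CD44high library 3, the highest (0.54, adjusted p = 0.0622). TGFBR2, the type II kinase that binds ligand, went the other way, at 339, 279, 290.4 and 319 CPM in CD44high against 487, 528, 544, 508 and 486 CPM in CD44low libraries. The groups were well apart, and the log2 fold change was -0.73 ± 0.15 (adjusted p = 0.000319, edgeR). TGFBR3, the coreceptor, changed most of the 10, from 71.1, 41.3, 39.5, 38.2 and 41.2 CPM in CD44low to 11.8, 10.2, 9.34 and 7.62 CPM in CD44high libraries. This is a log2 fold change of -2.26 ± 0.32 (adjusted p = 3.47e-06, edgeR), with CD44low library 1 well above the rest of its group.

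The 2 receptor-regulated SMADs differed from each other. SMAD2 was level across the subsets, at 105 to 118 CPM in CD44high and 91.7 to 120.4 CPM in CD44low libraries, with a log2 fold change of 0.07 and a 95% interval of -0.15 to 0.28 (adjusted p = 0.631, edgeR). SMAD3 was at 32.4, 34.8, 34.9 and 29.9 CPM in CD44high and 79.4, 55.6, 61.0, 48.4 and 60.9 CPM in CD44low libraries. Its groups did not overlap, and it was lower by a log2 fold change of -0.89 ± 0.25 (adjusted p = 0.00557, edgeR). The inhibitory SMAD7, itself a target of the pathway, was at 53.1, 42.6, 54.4 and 41.3 CPM in CD44high against 169.6, 143, 142, 156 and 129 CPM in CD44low libraries. Every CD44high library held under 55 CPM and every CD44low library over 129, a log2 fold change of -1.63 ± 0.27 (adjusted p = 2.64e-05, edgeR).

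The repressors also parted. SKIL was at 76.8, 102, 93.9 and 86.5 CPM in CD44high and 212, 217, 238, 183 and 166 CPM in CD44low libraries, without overlap (-1.18 ± 0.23, adjusted p = 0.000207, edgeR). SKI was at 81.5, 90.7, 68.6 and 50.8 CPM against 80.2, 62.9, 74.5, 106 and 77.3 CPM. These ranges overlapped, and the log2 fold change of -0.14 had a 95% interval of -0.72 to 0.44 (adjusted p = 0.706, edgeR).

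LRRC32, the docking receptor for latent TGF-β, was at 121, 159, 139 and 117 CPM in CD44high and 545, 448, 523, 508 and 384 CPM in CD44low libraries. The lowest CD44low library held more than the highest CD44high library by far, and the log2 fold change was -1.85 ± 0.18 (adjusted p = 1.22e-08, edgeR). FURIN was at 54.2, 45.4, 48.7 and 57.3 CPM against 98.2, 75.8, 91.8, 85.5 and 61.3 CPM. Its groups did not overlap either, but the test was not passed (-0.68, 95% interval -1.40 to 0.03, adjusted p = 0.112, edgeR). FURIN was called lower when the fit held the uninjured libraries alone (-0.69, adjusted p = 0.000349, edgeR), where the wide spread of the injured libraries does not enter.

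All 10 genes have long transcripts, with a longest transcript of 4278 to 8092 bases (median 5639), against a median of 3049.5 bases over the 11350 genes tested that had a length. The slope of log2 level on transcript length was higher in CD44low (0.07 to 0.19 per doubling of length) than in CD44high libraries (-0.05 to -0.01) of uninjured mice, so length moved with the subset. With each library's length trend removed, the 7 calls stood, but TGFBR2 shrank to -0.28 ± 0.11 (adjusted p = 0.0334), TGFBR1 grew to 0.92 ± 0.17, and SMAD2 came out higher in CD44high Tregs, at 0.52 ± 0.16 (adjusted p = 0.00894, edgeR).

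**Figure D3:**
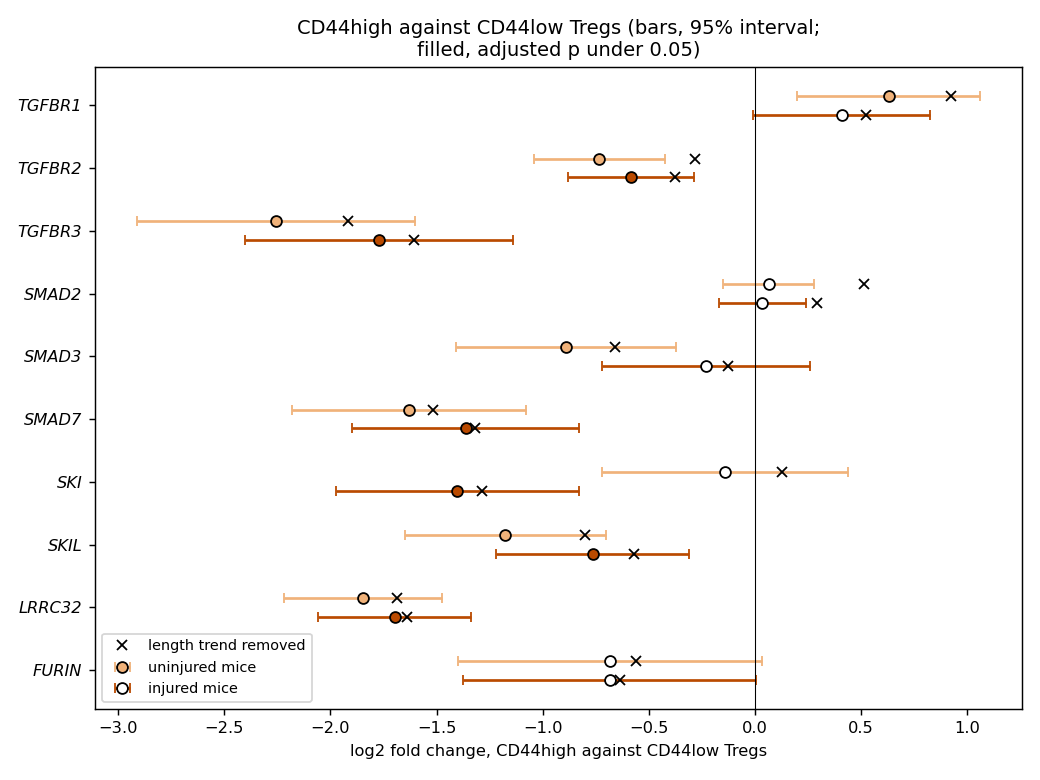
Log2 fold change of CD44high against CD44low Tregs (horizontal axis) for the 10 genes in uninjured and injured mice, with 95% intervals, filled points for an adjusted p under 0.05 and crosses for the value with the length trend removed. TGFBR3 and LRRC32 lie farthest to the left (-2.26 and -1.85 in uninjured mice), TGFBR1 lies to the right, and SKI is filled in injured mice (-1.40) and open in uninjured mice (-0.14).

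In injured mice CD44high Tregs again had less TGFBR2, TGFBR3, SMAD7, SKIL and LRRC32 than CD44low Tregs, and SKI joined them. In all 6 of the 10 genes were called lower and 0 higher (edgeR, adjusted p under 0.05), against 17.2% lower and 20.1% higher of all genes tested. For the count of 0, no gene passed an unadjusted p under 0.05 upwards, and DESeq2 called 0 as well. The median log2 fold change was -0.72 over the 10 genes and -0.00 over all genes tested. The groups did not overlap in 2 of the 10 (TGFBR3 and LRRC32), against 24.8% of all genes, and 1 (LRRC32) passed the p under 1e-06 with a 2-fold change, against 6.0%.

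LRRC32 was at 90.8, 188, 137 and 114 CPM in CD44high libraries and between 307 and 513 CPM (median 443, n = 6) in CD44low libraries, a log2 fold change of -1.70 ± 0.17 (adjusted p = 4.17e-08, edgeR). TGFBR3 was at 4.65, 12.3, 9.27 and 5.89 CPM against 13.1 to 41.6 CPM (median 27.4), or -1.77 ± 0.31 (adjusted p = 6.68e-05, edgeR). In both genes the highest CD44high library lay below the lowest CD44low library. SKI was at 58.7, 49.0, 124 and 79.8 CPM against 117 to 375 CPM (median 173), or -1.40 ± 0.28 (adjusted p = 0.000305, edgeR). Only CD44high library 4 reached the lower end of the CD44low range. SMAD7 was at 22.04, 47.0, 38.1 and 43.0 CPM against 44.3 to 148 CPM (median 88.8), or -1.36 ± 0.26 (adjusted p = 0.000199, edgeR). Here CD44low library 1 fell among the CD44high libraries, and the log2 fold change was -0.75 against the CD44low libraries 1, 2 and 5 and -1.79 against 1_2, 4_2 and 5_2. SKIL, at 45.7, 98.1, 87.0 and 78.1 CPM against 78.4 to 206 CPM (median 115), differed by -0.76 ± 0.22 (adjusted p = 0.00836, edgeR), with libraries of both groups near 80 to 100 CPM. TGFBR2 was at 178, 348, 327 and 290.4 CPM against 302 to 482 CPM (median 449.6), or -0.58 ± 0.14 (adjusted p = 0.00254, edgeR). CD44high library 2 was the lowest of the injured CD44high libraries in TGFBR1, TGFBR2, TGFBR3, SMAD3, SMAD7, SKIL, LRRC32 and FURIN, and it also had the lowest length slope of all libraries (-0.27 per doubling). All 6 of these calls stood without library 2.

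The remaining 4 genes did not pass. TGFBR1 was at 71.8, 179, 145 and 117 CPM in CD44high and 55.0 to 137 CPM (median 101) in CD44low libraries, a log2 fold change of 0.41 with a 95% interval of -0.01 to 0.82 (adjusted p = 0.114, edgeR). It passed without CD44high library 2 (0.58, adjusted p = 0.0187), without CD44low library 5 (0.54, adjusted p = 0.0362), with the length trend removed (0.52, adjusted p = 0.0127) and against 1_2, 4_2 and 5_2 alone (0.69, adjusted p = 0.0228, edgeR). Only 5 of 31 alternatives called TGFBR1, and its log2 fold change ranged from -0.35 to 0.69 over all of them. SMAD3 was at 19.5, 49.3, 43.2 and 33.0 CPM against 24.3 to 68.9 CPM (median 41.1), with a log2 fold change of -0.23 (95% interval -0.72 to 0.26). FURIN, at 20.4, 66.6, 70.9 and 39.3 CPM against 31.7 to 141 CPM (median 68.7), differed by -0.68 (95% interval -1.37 to 0.00, adjusted p = 0.11), but by -0.11 against the CD44low libraries 1, 2 and 5 and by -1.10 against 1_2, 4_2 and 5_2, and it passed without CD44low library 1 (-0.85, adjusted p = 0.0315, edgeR). SMAD2 stayed level, at 92.0 to 118 CPM in CD44high and 87.2 to 108 CPM in CD44low libraries (0.04, 95% interval -0.17 to 0.24).

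The wider pathway was read from 7 lists of 69 genes, 53 of which were tested. In uninjured mice 12 of the 53 were called higher and 18 lower in CD44high Tregs, with a median log2 fold change of -0.01, and in injured mice 12 were higher and 15 lower, with a median of -0.05, near those of all genes tested (0.01 and -0.00). As shares, 22.6% were higher and 34.0% lower in uninjured mice, against 24.7% and 21.3% of all genes tested, and 22.6% and 28.3% in injured mice, against 20.1% and 17.2%. The lists differed in direction. Of the 7 ligand and latency genes tested, ITGB8, an integrin chain that frees latent TGF-β, was higher in uninjured and injured mice (1.42 ± 0.21 and 1.06 ± 0.20, adjusted p = 8.24e-06 and 0.000202, edgeR), and the ligand TGFB3, at 0 to 43 counts in a library, was higher in injured mice (1.85 ± 0.70, adjusted p = 0.0389, edgeR), a call made in 17 of 31 alternatives, with values of 1.21 to 2.72. TGFB1, the main ligand of lymphocytes, differed by 0.06 and -0.05 and was not called. Of 9 other receptors of the superfamily, 2 were higher and 4 lower in uninjured mice and 1 and 3 in injured mice. BMPR1A, a bone morphogenetic protein receptor, was higher (2.76 ± 0.51 and 2.10 ± 0.49, adjusted p = 0.000109 and 0.00147, edgeR), and ACVR2A, an activin receptor, was higher in uninjured mice (1.10 ± 0.24). ACVR1C, a type I receptor for nodal and activin, had 0 or 1 count in each CD44high library and 2 to 41 counts in each CD44low library, and it was called lower (adjusted p = 0.000113 and 0.000392, edgeR). ACVR1B was lower in uninjured mice (-1.36 ± 0.42), and TGFBRAP1, which binds the receptors, was lower in injured mice (-0.82 ± 0.29, adjusted p = 0.0293, edgeR). The call of TGFBRAP1 was made in 24 of 31 alternatives. Among those that lost it was the comparison against the CD44low libraries 1, 2 and 5 alone (-0.38, adjusted p = 0.326, edgeR).

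Among the other SMADs, SMAD regulators, SMAD cofactors and TAK1 genes, the called genes were mostly lower in CD44high Tregs. The target genes, given further below, went mostly the other way. The values given here were not corrected for the length trend. Of all genes tested, 24.7% were called higher and 21.3% lower in uninjured mice, and 20.1% and 17.2% in injured mice. All 3 other SMADs tested were lower in uninjured mice, with SMAD1 at -0.67 ± 0.14 and SMAD5 at -0.68 ± 0.23, both of which carry the bone morphogenetic protein signal. In injured mice 2 of the 3 were lower, SMAD1 (-1.01 ± 0.14) and the common partner SMAD4 (-0.49 ± 0.09, adjusted p = 0.000144, edgeR). Of 15 SMAD regulators 3 were higher and 5 lower in uninjured and 2 higher and 7 lower in injured mice. NEDD4L, a ubiquitin ligase for activated SMADs, was lower (-1.95 ± 0.17 and -1.10 ± 0.16, adjusted p = 2.54e-09 and 8.26e-06, edgeR). The corepressor TGIF2 was lower in uninjured mice (-1.26 ± 0.21), and SMURF2, a ubiquitin ligase that SMAD7 recruits, was lower in injured mice (-1.32 ± 0.21, adjusted p = 1.84e-05, edgeR). FKBP1A, which holds the type I receptor inactive, was higher (0.85 ± 0.11 and 0.68 ± 0.10, adjusted p = 8.11e-07 and 1.23e-05, edgeR), USP15, a deubiquitinase, was higher in uninjured mice (0.37 ± 0.13) and LDLRAD4, an inhibitor of SMAD activation, in injured mice (0.33 ± 0.11). These calls of USP15 and LDLRAD4 were made in 28 and 24 of 31 alternatives (adjusted p up to 0.065 and 0.0877, edgeR and DESeq2). Of 5 SMAD cofactors, 3 were lower in uninjured mice, among them CREBBP, an acetyltransferase (-1.24 ± 0.27), and SIN3A, a corepressor (-0.79 ± 0.18). In injured mice 2 were lower, among them CREBBP (-0.92 ± 0.26). In the SMAD-independent TAK1 branch TRAF6 was lower (-1.56 ± 0.21 and -1.37 ± 0.21, adjusted p = 2.19e-06 and 1.1e-05, edgeR), as was TAB3 in uninjured mice (-0.85 ± 0.32). In uninjured mice TAB3 was called in 27 and SMAD5 in 29 of 31 alternatives (adjusted p up to 0.127 and 0.189, edgeR and DESeq2). CREBBP in injured mice was called in 30, with values of -1.35 to -0.32 (adjusted p up to 0.309, edgeR and DESeq2). In uninjured mice it was called in all 31, with values of -1.32 to -0.66.

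Of the 9 genes tested that are known as targets of TGF-β, 7 had a positive and 2 a negative log2 fold change, in uninjured and in injured mice. The median was 3.01 and 2.28. The list was chosen with earlier results of these data known, and it did not separate targets that TGF-β raises from those it lowers. In CD44high Tregs 6 were called higher and 1 lower in uninjured mice, against 24.7% and 21.3% of all genes tested. In injured mice 7 were called higher and 0 lower, against 20.1% and 17.2%. ITGAE (CD103), which binds E-cadherin, was higher (3.51 ± 0.15 and 2.99 ± 0.14, adjusted p = 1.01e-14 and 1.04e-13, edgeR), and so was ID2, an inhibitor of E proteins (3.19 ± 0.12 and 2.35 ± 0.11, adjusted p = 1.31e-15 and 1.04e-13, edgeR). ID3, its relative, was lower in uninjured mice (-0.60 ± 0.17, adjusted p = 0.00659, edgeR). CTGF had 0 counts in all CD44low libraries of uninjured mice and 30 to 52 in the CD44high ones, which is at least 76.8-fold higher when set against 3 counts over the group. With CTGF at that bound the median of the list was again 3.01. Its mean in those CD44high libraries was only 7.06 CPM, and COL1A1 and the macrophage and dendritic cell genes were higher there too. Which cells the CTGF transcript came from was not tested. These genes respond to other signals as well, and SMAD7 and SKIL, also known as targets, were lower in CD44high Tregs.

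**Figure D4:**
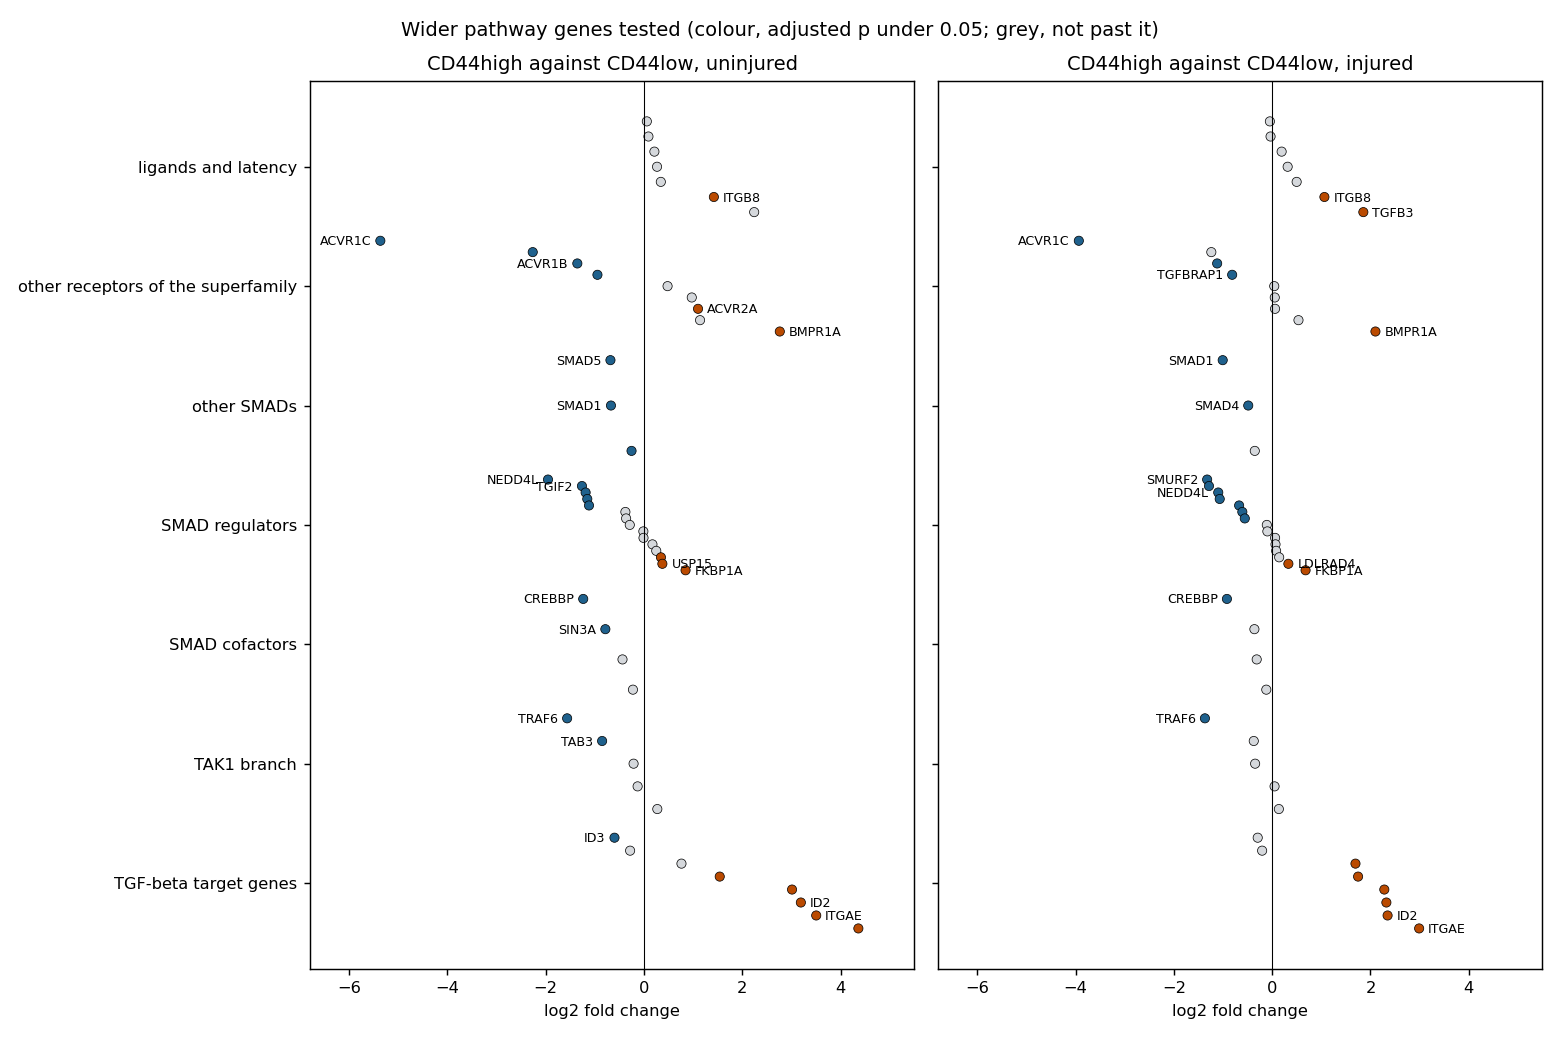
Log2 fold change of CD44high against CD44low Tregs (horizontal axis) for the wider pathway genes tested, by list, in uninjured (left) and injured mice (right), with colour for an adjusted p under 0.05, CTGF left out because of its counts of 0, and 1 SMAD cofactor not drawn. The targets ITGAE and ID2 lie between 2.35 and 3.51, while the called cofactors, other SMADs and TAK1 genes all lie below 0.

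Within CD44high Tregs, injury moved none of the 10 genes past the test. For all of them 0 were called higher and 0 lower (edgeR, adjusted p under 0.05), where 1.06% of all genes tested were called higher and 1.33% lower. At an unadjusted p under 0.05 the counts were 0 and 1, and DESeq2 called 0 and 1, in both cases TGFBR1. The median log2 fold change was -0.11 over the 10 genes and -0.02 over all genes tested, and 0 passed the p under 1e-06 with a 2-fold change, against 0.148% of all genes. The groups did not overlap in 1 of the 10, against 13.3% of all genes.

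That gene was TGFBR1, at 71.8, 179, 145 and 117 CPM in injured against 208, 256, 184 and 209.7 CPM in uninjured mice. The highest injured library lay just under the lowest uninjured one, and the log2 fold change of -0.74 ± 0.22 gave an adjusted p of 0.0787 (edgeR). DESeq2 called it (adjusted p = 0.0303), as did the fit on the CD44high libraries alone (0.0442) and the fit with the length trend removed (-0.70, 0.0301, edgeR). It also passed in edgeR's test without injured CD44high library 3 (-0.94, adjusted p = 0.0306) and without CD44low library 1_2 (-0.74, adjusted p = 0.038). Of 31 alternatives, 8 called TGFBR1, with log2 fold changes of -0.94 to -0.53 over all of them (adjusted p up to 0.259, edgeR and DESeq2). The other 9 genes had log2 fold changes between -0.35 (SMAD7) and 0.14 (SMAD3) and adjusted p-values of 0.613 or more. The 95% intervals still allow sizeable changes, from -0.92 to 0.22 for SMAD7 and from -0.80 to 0.69 for FURIN, and are narrow for SMAD2 (-0.33 to 0.12) and TGFBR2 (-0.42 to 0.22). The injured libraries spread widely. FURIN ranged from 20.4 to 70.9 CPM in injured and from 45.4 to 57.3 CPM in uninjured mice, and SMAD3 from 19.5 to 49.3 and from 29.9 to 34.9 CPM.

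Within CD44low Tregs, SKI rose after injury, and no other gene of the 10 passed the test. The counts were 1 higher and 0 lower (edgeR, adjusted p under 0.05), against 4.24% higher and 3.36% lower of all genes tested. At an unadjusted p under 0.05 5 were lower (TGFBR1, TGFBR3, SMAD3, SMAD7 and SKIL), and DESeq2 called 1 lower, SKIL. The median log2 fold change was -0.38 over the 10 genes and 0.01 over all genes tested. The length slope moved with injury too, from 0.07 to 0.19 per doubling in uninjured to -0.19 to 0.15 in injured CD44low libraries, and with the trend removed the median of the 10 genes was -0.16. Of the 10 genes, 0 passed the p under 1e-06 with a 2-fold change, against 0.122% of all genes. The groups did not overlap in 2 of the 10 (SKI and TGFBR2), against 4.68% of all genes.

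SKI was at 80.2, 62.9, 74.5, 106 and 77.3 CPM in uninjured mice and at 117 to 375 CPM (median 173, n = 6) in injured mice. Every injured library lay above every uninjured one, and the log2 fold change was 1.36 ± 0.26 (adjusted p = 0.00331, edgeR). Both sets of injured libraries showed it, with 158, 189 and 375 CPM in 1, 2 and 5 (1.58 ± 0.27, adjusted p = 0.000711) and 244, 153 and 117 CPM in 1_2, 4_2 and 5_2 (1.09 ± 0.26, adjusted p = 0.0249, edgeR). Library 5, with the highest SKI level, also had the highest sum of macrophage and dendritic cell genes of its group (147 CPM). Over all 31 alternatives the log2 fold change of SKI was 1.09 to 1.67, with an adjusted p of at most 0.0249 (edgeR and DESeq2).

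For SMAD7, SMAD3, TGFBR3, TGFBR1 and FURIN the sets of injured CD44low libraries gave different values, while those of SKIL, TGFBR2, LRRC32 and SMAD2 lay close together. SMAD7 was at 129 to 169.6 CPM in uninjured mice, at 44.3, 64.0 and 81.6 CPM in libraries 1, 2 and 5, and at 96.0, 148 and 147 CPM in libraries 1_2, 4_2 and 5_2. Libraries 1, 2 and 5 all lay below every uninjured library, whereas 2 of the other 3 lay within their range. Over all 6 the log2 fold change was -0.61 ± 0.23 (adjusted p = 0.0908), against -1.22 ± 0.20 (adjusted p = 0.000587) with 1, 2 and 5 and -0.18 ± 0.19 (adjusted p = 0.611, edgeR) with 1_2, 4_2 and 5_2. It passed without library 4_2 (-0.77, adjusted p = 0.0376) and without 5_2 (-0.77, adjusted p = 0.0217, edgeR). SMAD3 was at 24.3, 39.1 and 43.1 CPM in 1, 2 and 5, all below the 48.4 to 79.4 CPM of uninjured mice, and at 30.2, 50.7 and 68.9 CPM in the others. It passed with 1, 2 and 5 alone (-0.78 ± 0.23, adjusted p = 0.0272) and without 5_2 (-0.71, adjusted p = 0.024), but not over all 6 (-0.52 ± 0.22, adjusted p = 0.138, edgeR). With 1_2, 4_2 and 5_2 alone SMAD3 was at -0.29 ± 0.25 (adjusted p = 0.532, edgeR), and 2 of 31 alternatives called it. TGFBR3 was at 13.1, 19.1 and 37.7 CPM in 1, 2 and 5 and at 21.9, 32.9 and 41.6 CPM in the others, against 38.2 to 71.1 CPM in uninjured mice. Its log2 fold change was -0.74 ± 0.26 (adjusted p = 0.0751) over all 6, -0.99 ± 0.31 (adjusted p = 0.0334) with 1, 2 and 5 and -0.89 (adjusted p = 0.0239, edgeR) without 5_2. With 1_2, 4_2 and 5_2 alone TGFBR3 was at -0.52 ± 0.27 (adjusted p = 0.268, edgeR), and 2 of 31 alternatives called it.

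SKIL was at 166 to 238 CPM in uninjured mice and at 78.4 to 206 CPM (median 115, n = 6) in injured mice. Its log2 fold change of -0.63 ± 0.20 just missed the threshold (adjusted p = 0.0535, edgeR), with close values in the sets (-0.69 with 1, 2 and 5 and -0.57 with 1_2, 4_2 and 5_2), and it passed without library 5 (-0.73, adjusted p = 0.0355), without 5_2 (-0.80, adjusted p = 0.00673) and without injured CD44high library 2 (-0.61, adjusted p = 0.0349, edgeR). TGFBR1 was at 115 to 150.2 CPM in uninjured and 55.0 to 137 CPM in injured mice (median 101), or -0.51 ± 0.19 (adjusted p = 0.0893), and passed without library 5 (-0.64, adjusted p = 0.0428, edgeR). Here 1_2, 4_2 and 5_2 all lay below every uninjured library (-0.79 ± 0.22) and 1, 2 and 5 did not (-0.29 ± 0.19). TGFBR2 was below every uninjured library (486 to 544 CPM) in all 6 injured libraries, at 302 to 482 CPM (median 449.6). The difference was small, -0.25 with a 95% interval of -0.53 to 0.02 (adjusted p = 0.225, edgeR), and it turned to 0.05 with the length trend removed. LRRC32 (-0.16, 95% interval -0.48 to 0.16) and SMAD2 (-0.08, 95% interval -0.27 to 0.12) were not called. FURIN was at 31.7, 44.2 and 84.0 CPM in libraries 1, 2 and 5 and at 53.4, 124 and 141 CPM in 1_2, 4_2 and 5_2, against 61.3 to 98.2 CPM in uninjured mice. Its log2 fold change was -0.63 ± 0.30 with the first set and 0.36 ± 0.30 with the second, and -0.05 over all 6 (95% interval -0.69 to 0.58).

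**Figure D5:**
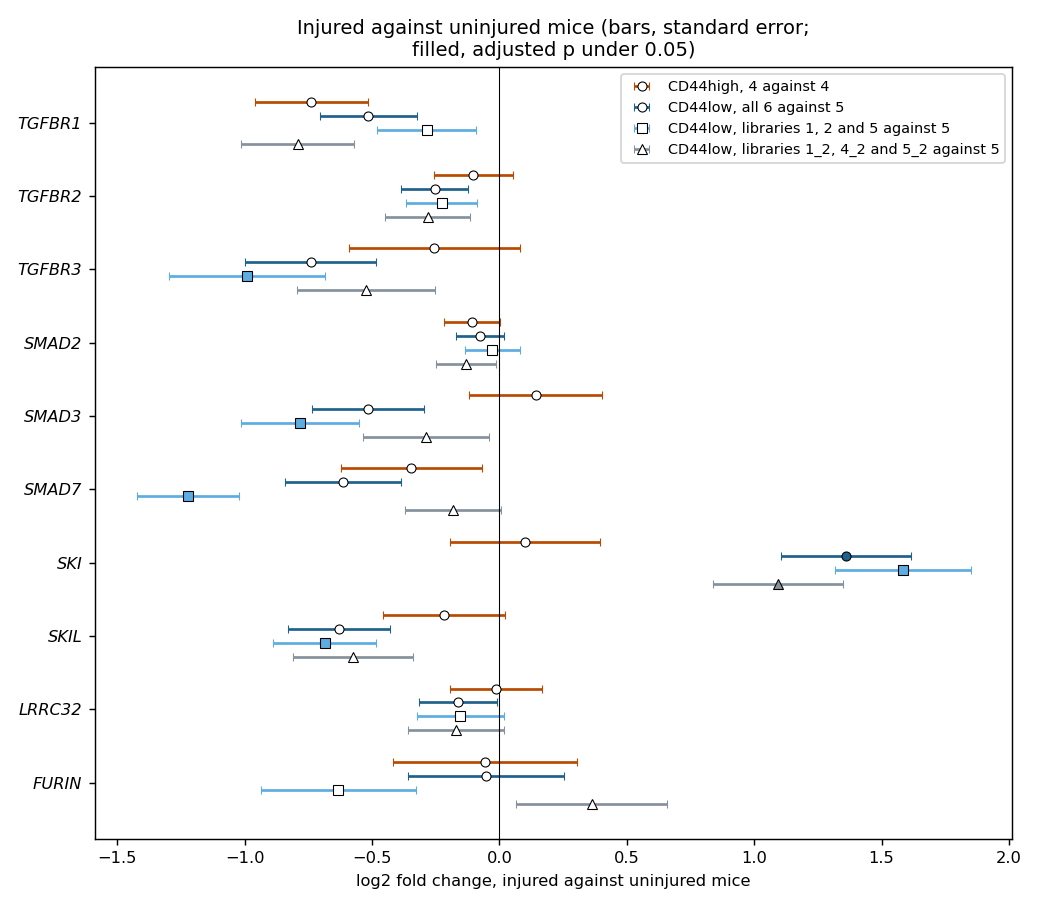
Log2 fold change of injured against uninjured mice (horizontal axis) for the 10 genes in CD44high Tregs, in CD44low Tregs, and in CD44low Tregs with each set of 3 injured libraries, with the standard error as bars and filled points for an adjusted p under 0.05. SKI is filled in the 3 CD44low series (1.36, 1.58 and 1.09), and SMAD7 and FURIN move apart between the sets.

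The test of whether the effect of injury differed between the subsets (edgeR, adjusted p under 0.05) called 0 of 10, against 0.645% of all genes tested, with 1 at an unadjusted p under 0.05 and 0 by DESeq2. That 1 was SKI, whose injury effect was 0.10 in CD44high and 1.36 in CD44low Tregs. The difference of -1.26 ± 0.39 on the log2 scale had a 95% interval of -2.06 to -0.46, an unadjusted p of 0.00347 and an adjusted p of 0.154 (edgeR), and with the CD44low libraries 1_2, 4_2 and 5_2 left out it was -1.48 (adjusted p = 0.0366, edgeR). SMAD3 had a difference of 0.66 (95% interval -0.05 to 1.36), and the others lay between -0.22 (TGFBR1) and 0.49 (TGFBR3), with adjusted p-values of 0.689 or more. The comparisons of the subsets and of injury share libraries, so their values are not independent of each other.

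Injury changed 3 genes of the wider pathway in CD44high Tregs and 5 in CD44low Tregs. In CD44high Tregs 1 of the 53 tested was called higher (1.89%) and 2 lower (3.77%), against 1.06% and 1.33% of all genes tested. SMAD4 fell by 0.36 ± 0.10 on the log2 scale (adjusted p = 0.0483), ITGAE fell by 0.73 ± 0.15 (adjusted p = 0.00707) and ID3 rose (0.70 ± 0.18, adjusted p = 0.0386, edgeR). The call of SMAD4 was made in 13 of 31 alternatives (adjusted p up to 0.174) and that of ID3 in 22 (up to 0.158). In CD44low Tregs 4 were higher (7.55%) and 1 lower (1.89%), against 4.24% and 3.36% of all genes. FKBP1A rose by 0.40 ± 0.10 (adjusted p = 0.0162), USP15 by 0.39 ± 0.12 (adjusted p = 0.0426) and ID2 by 0.47 ± 0.11 (adjusted p = 0.0138, edgeR). JUNB, an AP-1 factor, fell by 0.92 ± 0.23 (adjusted p = 0.0176, edgeR). The call of JUNB was made in 27 of 31 alternatives, with log2 fold changes of -1.75 to -0.40 (adjusted p up to 0.107, edgeR and DESeq2). That of FKBP1A was made in 29 and that of ID2 in 28. CTGF was also called (adjusted p = 0.0472, edgeR), from 0 counts in all uninjured to at most 5 counts in each injured library. CTGF was called in 10 of 31 alternatives (adjusted p up to 0.215) and USP15 in 17 (up to 0.482). Only ID2 was called for the difference between the subsets (-0.84 ± 0.16, adjusted p = 0.0115, edgeR), with a log2 fold change after injury of 0.47 in CD44low and -0.38 in CD44high Tregs, where it was not called.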

How the data were processed

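Bulk RNA-seq of 19 libraries of sorted Tregs was analysed. Per the labels and the study's methods, cDNA was made with SMART-Seq v4 and reads were aligned and counted per gene with STAR (2.5 in the submitters' processing notes) in the VIPER pipeline. The values are raw read counts per gene as the authors deposited them, not normalized. The notes name the builds mm9 and mm10 with no role, and whether strand was used in counting was not stated.

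Counts were fitted in edgeR (4.0.16, R 4.3.3) with TMM factors, filterByExpr at a minimum count of 10, 1 mean per group over all 19 libraries and the quasi-likelihood test. Of the 24982 genes, 11464 passed, and p-values were Benjamini-Hochberg adjusted over them. DESeq2 (1.42.0) was an alternative. Standard errors and 95% intervals come from the edgeR fit. The steps were tested on simulated counts. Transcript lengths come from GENCODE, joined by symbol. FURIN and TGFBR3 overlap exons of genes that the table does not list, and reads there cannot be assigned apart.

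The 10 genes and all lists were chosen with earlier results of these data known. The text names all 10 genes in every comparison, and for each pathway list, comparison and direction the 2 genes of smallest p among those called, apart from 2 genes that are not reported here. TGFB1, LY6G, PDGFRA, PECAM1 and COL1A1 were added after their values were seen. The last 2 alternatives were chosen after seeing the data: removal of the length trend, and the omission of injured CD44high library 2 with CD44low library 1_2, which were picked because the summed level of the 10 genes was lowest there in their groups. The others covered normalization, filters, thinning, a replicate block, a stricter call (p under 1e-06 and 2-fold), the library sets and each library left out.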

Additional observations from a re-analysis of the deposited data

Results flagged for a closer look

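TGFBR3 in CD44low Tregs of uninjured mice had 1 library that stood apart: library 1 held 71.1 CPM and the other 4 held 38.2 to 41.3, a gap of 0.907 of the group's whole range. This was the only such gap above Dixon's 95% critical value among the 40 groups tested (10 genes in 4 groups), and chance flags about 1 group in 20. The same library had the highest length slope (0.192 per doubling) and the highest levels of SMAD2, SMAD3, SMAD7, LRRC32 and FURIN in its group. TGFBR3 was called lower in uninjured CD44high Tregs in every alternative, the fit without that library included.

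ID2 responded to injury differently in the subsets, with an effect in CD44high Tregs minus that in CD44low Tregs of -0.84 ± 0.16 on the log2 scale (adjusted p = 0.0115, edgeR's quasi-likelihood test of the difference). None of the 10 genes passed that test.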

How the results depend on the processing

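In uninjured mice TGFBR2, TGFBR3, SMAD3, SMAD7, SKIL and LRRC32, in injured mice TGFBR2, TGFBR3, SMAD7, SKI, SKIL and LRRC32, and after injury in CD44low Tregs SKI were called at an adjusted p under 0.05 in all 31 alternatives that keep that threshold. TGFBR1 in uninjured mice was called in 30. The cause of the changes below was not tested. The count of the 10 genes called higher in uninjured mice became 2 with the length trend removed and 0 at a p under 1e-06 with 2-fold, where the count called lower became 2. The count called lower in uninjured mice was 7 with 1_2, 4_2 and 5_2 left out and in the compared groups alone, FURIN being added. In injured mice it was 7, again with FURIN, with 1_2, 4_2 and 5_2 alone and without CD44low library 1. The count called higher in injured mice was 1 (TGFBR1) with 1_2, 4_2 and 5_2 alone, with the length trend removed and without injured CD44high library 2 and CD44low library 1_2 (a pair picked by the level of these genes, so no support for the call), and the count called lower was 1 at the stricter call. After injury in CD44high Tregs 1 was lower (TGFBR1) in DESeq2, in the compared groups alone, with 1 and 5 summed with 1_2 and 5_2, with 1_2, 4_2 and 5_2 left out, with the length trend removed and in the block with those numbers kept apart. After injury in CD44low Tregs 1 was lower in DESeq2, in the summed libraries and in that block, 4 were lower with 1_2, 4_2 and 5_2 left out, and 0 were higher at the stricter call. For the difference between subsets 1 was lower with 1_2, 4_2 and 5_2 left out.

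Leaving out 1 library at a time, the counts ranged from 0 to 1 (higher, uninjured; higher, injured; lower, CD44high after injury) and from 0 to 4 (lower, CD44low after injury). Log2 fold changes that changed sign ranged from -0.26 to 0.00083 for SKI in uninjured and -0.069 to 0.080 for SMAD2 in injured mice. After injury in CD44high Tregs they ranged from -0.21 to 0.077 for TGFBR2, -0.042 to 0.36 for SMAD3, -0.22 to 0.27 for SKI, -0.23 to 0.14 for LRRC32 and -0.28 to 0.21 for FURIN. FURIN in CD44low Tregs ranged from -0.30 to 0.11. The differences between subsets ranged from -0.12 to 0.014 for SMAD2, -0.071 to 0.28 for LRRC32 and -0.23 to 0.24 for FURIN.

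Other sign changes concerned genes that were not called. With the length trend removed, SKI was 0.13 in uninjured mice. After injury SMAD2 was then 0.024 and LRRC32 0.030 in CD44high Tregs, TGFBR2 was 0.047, SMAD2 0.25 and FURIN 0.052 in CD44low Tregs, and the difference for TGFBR2 was -0.091. With 1_2, 4_2 and 5_2 left out, SMAD2 was -0.015 and SMAD3 0.035 in injured mice, and the difference for FURIN was 0.58. With these alone, FURIN after injury in CD44low Tregs was 0.36, and the differences were 0.054 for TGFBR1, 0.023 for SMAD2 and -0.16 for SMAD7. Without CD44high library 2 and CD44low library 1_2, SMAD2 was -0.066 in injured mice, TGFBR2, LRRC32 and FURIN were 0.077, 0.14 and 0.21 after injury in CD44high Tregs, FURIN was 0.064 in CD44low Tregs and its difference 0.15. LRRC32 after injury in CD44high Tregs was 0.0062 with no filter, 0.0044 in the compared groups alone and 0.0030 thinned.

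Whether the replicate numbers pair the libraries was not settled by their correlations. The 8 same-number pairs correlated at -0.05 to 0.17, 4 of them over 0.1, and 3 of 7 CD44high libraries correlated best with their own number. Weak correlations cannot exclude pairing. With the replicate block, lower calls numbered 7 in uninjured and 8 in injured mice, FURIN and SMAD3 being added (-1.17 and -0.67 in injured mice), and the differences were -0.077 for TGFBR2, -0.18 for TGFBR3, -0.033 for SMAD7 and -0.23 for LRRC32. With 1_2, 4_2 and 5_2 as numbers of their own, the block gave -0.35 for TGFBR1 in injured mice, differences of -0.23 for TGFBR2, -0.32 for TGFBR3 and -0.33 for LRRC32, and 2 differences called lower, SKI (-1.82, adjusted p = 0.00591) and TGFBR1 (-0.97, adjusted p = 0.0132). It also gave -0.68 for SMAD3 and -1.10 for FURIN in injured mice.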
